A study of Caenorhabditis elegans with 2 samples.

Results

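The genes described here encode the subunits of neurotransmitter-gated ion channels of Caenorhabditis elegans whose symbols begin with acr, lgc, glr, nmr, glc or gab followed by a number. They were chosen by symbol alone among protein-coding gene models of Ensembl release 115 on WBcel235, which is the assembly of the ce11 build. The rule found 92 genes of 19973 coding genes on the 6 nuclear chromosomes, with 56 lgc, 21 acr, 8 glr, 4 glc, 2 nmr and 1 gab gene. Chromatin immunoprecipitation followed by sequencing (ChIP-seq) had been used to map an eGFP-tagged LIN-39 protein in whole L2 larvae of strain OP18. Per the labels, the genotype was unc-119(ed3) III; wgIs18, the larvae were of mixed sex, and 1 group was sampled in 2 biological replicates, numbered 1 and 2. The antibody is labelled lin-39. Both samples carried the unc-119 allele and the lin-39 transgene, whose promoter the labels do not give. No second condition and no control library is analysed here, so the channel genes were set beside all coding genes of the same lists.

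LIN-39 is the mid-body Hox transcription factor of the worm, known for its roles in vulval precursor cells and in ventral cord motor neurons. Cys-loop channels are rings of subunits that open when a transmitter binds. The acr genes encode subunits of the nicotinic acetylcholine receptor type, which let cations in and excite a cell. The glc genes encode glutamate-gated chloride channels, which inhibit it, and gab-1 encodes a subunit of the GABA-A receptor type. The lgc genes are a mixed set of Cys-loop subunits, among them channels gated by acetylcholine, GABA, serotonin, dopamine or tyramine. The glr and nmr genes belong to another superfamily, the ionotropic glutamate receptors, of the AMPA or kainate type and of the NMDA type. Motor neurons and muscles use many of these channels.

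A region was counted for a gene if its summit lay between 5 kb upstream of the gene and the gene's end, and regions were ranked within each list by the deposited signal value, with rank 1 the strongest. Each candidate list held 30000 regions, peaks and background together, so a place on it does not by itself show binding. The authors' optimal list, of regions that passed a threshold on the irreproducible discovery rate (IDR), was made of the 311 strongest regions of the list from both replicates. A stretch of 201 bases around the summit is printed below for 5 regions that carry the ranks described later. They are the lgc-12 region, which was on the optimal list, the strongest acr region, at acr-8, the best regions of lgc-13 and of its neighbours lgc-14 and lgc-15 on X, and the region in acr-12, a motor neuron subunit gene. All are read from the plus strand of the RefSeq copy of WBcel235. Capitals mark GAGAGA, a repeat word, or TGATNNAT, the consensus of Hox proteins with Pbx cofactors. They also mark TGATAA, the core word of GATA factors. Both strands were searched. All 5 stretches hold a marked word, while the strongest regions of lgc-51, glc-2, glc-3, lgc-25 and lgc-36 held none. The 5 therefore do not show how common the words were, and the shares are given below.
lgc-12 (chrIII:7559992-7560192): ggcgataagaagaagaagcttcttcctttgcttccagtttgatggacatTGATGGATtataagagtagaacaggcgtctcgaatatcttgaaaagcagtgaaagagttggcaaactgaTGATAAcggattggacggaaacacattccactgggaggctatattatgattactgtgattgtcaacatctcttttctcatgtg
acr-8 (chrX:10410720-10410920): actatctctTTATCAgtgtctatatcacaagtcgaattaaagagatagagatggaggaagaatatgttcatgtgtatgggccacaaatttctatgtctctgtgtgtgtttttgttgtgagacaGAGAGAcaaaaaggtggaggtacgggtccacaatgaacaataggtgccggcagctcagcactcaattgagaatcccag
lgc-13 (chrX:12106263-12106463): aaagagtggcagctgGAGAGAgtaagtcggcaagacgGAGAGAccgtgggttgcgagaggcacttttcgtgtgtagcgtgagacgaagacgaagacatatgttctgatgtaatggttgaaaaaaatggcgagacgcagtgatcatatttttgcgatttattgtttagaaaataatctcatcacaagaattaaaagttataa
lgc-14 and lgc-15 (chrX:12113330-12113530): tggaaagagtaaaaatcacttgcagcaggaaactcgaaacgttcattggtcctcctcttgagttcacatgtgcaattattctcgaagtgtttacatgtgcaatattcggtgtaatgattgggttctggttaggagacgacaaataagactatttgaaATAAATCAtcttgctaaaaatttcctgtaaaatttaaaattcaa
acr-12 (chrX:13533470-13533670): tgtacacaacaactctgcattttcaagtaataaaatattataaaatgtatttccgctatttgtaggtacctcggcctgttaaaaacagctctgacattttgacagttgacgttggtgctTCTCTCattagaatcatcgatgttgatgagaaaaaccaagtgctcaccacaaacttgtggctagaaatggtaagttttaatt

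The channel genes had an optimal LIN-39 region about as often as coding genes in general, and had a region among the strongest 2000 somewhat more often. An optimal region lay in the window of 2 of the 92 genes (2.17%), lgc-12 and lgc-51, while 2.54% of all coding genes had one. A region among the strongest 2000 lay in the window of 18 channel genes (19.6%, exact Clopper-Pearson 95% interval 12.03 to 29.1) and of 13.8% of all coding genes. The interval includes the 13.8% of all coding genes. It covers the counting of genes only, and neighbouring members share regions. At ranks 500 and 750 the channel genes stood lower, at 2.17% and 4.35%, against 3.93% and 5.67% of all coding genes. Some candidate region lay in 90 of the 92 windows (97.8%), against 87.7% of windows over all coding genes. The channel genes had longer windows, with a median of 9112.5 bp against 7027 bp over all coding genes, and a longer window holds more regions. Per 100 kb of window the channel genes had 31.8 candidate regions and 2.31 of the strongest 2000, against 30.3 and 2.02 over all coding windows. The median best rank was 6594 for the 90 channel genes with a region and 7785 for the 17524 coding genes with a region. When each region was given to the nearest coding 5′ end alone, 11 channel genes had a region among the strongest 2000 (11.96%, against 8.13% of all coding genes) and lgc-12 alone had an optimal one. No test was made of these differences, and the 2 libraries give no contrast to test them in. Whole larvae were used, so a site bound in few neurons and a site bound weakly in many cells cannot be told apart.

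**Figure D1:**
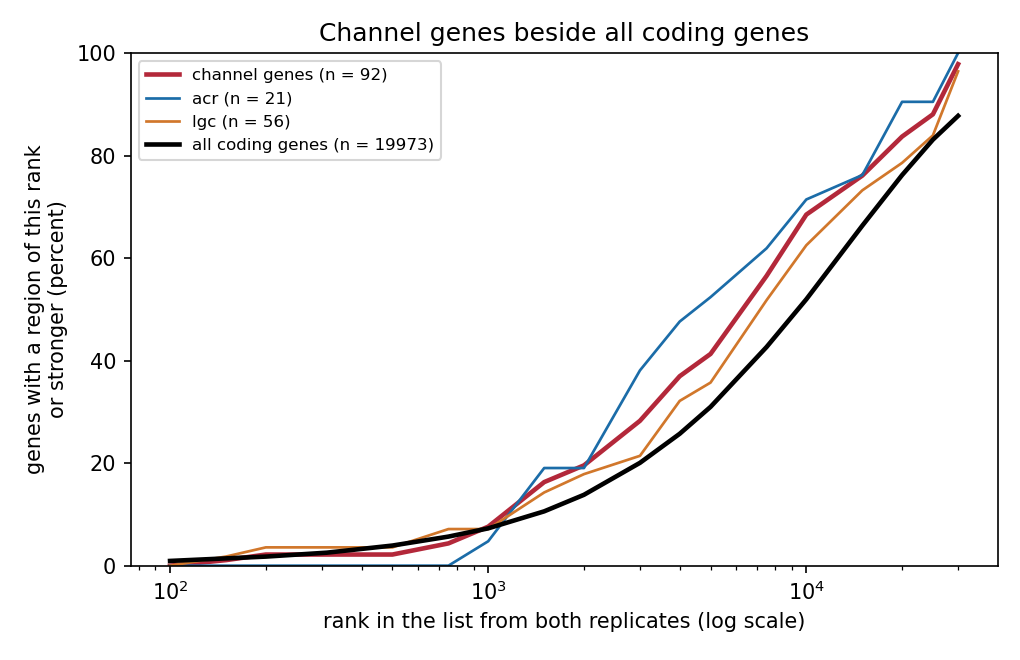
Share of genes in percent (vertical axis) whose window held a region of the given rank or stronger in the list from both replicates (horizontal axis, log scale), for all 92 channel genes, the 21 acr genes, the 56 lgc genes and all 19973 coding genes. At rank 311 the channel genes stood at 2.17% and all coding genes at 2.54%, and at rank 2000 they stood at 19.6% and 13.8%.

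The 2 genes with an optimal region are both Cys-loop subunit genes of the lgc family. The lgc-12 gene (III:7562172-7564558, plus strand) had a single candidate region in its window, at III:7559937-7560246. Its summit lay 2080 bp upstream of lgc-12, which was also the nearest coding 5′ end, and in no other coding gene's window. The region had rank 144 in the list from both replicates, with a signal value of 53.2 where the last optimal region had 42.4, and its ranks in replicates 1 and 2 were 75 and 933. It was among the strongest 2000 of both replicates, and the summits of the 2 replicates lay 9 bp apart. Its sequence, printed above, held both the Hox with Pbx word and the GATA factor word.

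The lgc-51 window held 7 candidate regions, of which the strongest had rank 171 and a signal value of 50.8. This region lay 1929 bp upstream of lgc-51 but 784 bp from the 5′ end of a neighbour, W03F11.4, and was counted for both genes. Its ranks were 1569 in replicate 1 and 137 in replicate 2. A second region of the same window, 607 bp upstream of lgc-51, had rank 1177 in the list from both replicates and rank 404 in replicate 1. No replicate 2 region overlapped that second one. The best regions of lgc-12 and lgc-51 were thus among the strongest 2000 of each replicate, with lgc-12 higher in replicate 1 and lgc-51 higher in replicate 2.

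The acr genes, which encode nicotinic-type subunits, had no optimal region, which 2.54% of all coding genes had. Of the 21 genes, 4 had a region among the strongest 2000 (19.05%), and the median best rank of the family was 4945. The strongest was acr-8 at rank 771, with a region 1905 bp upstream of its 5′ end. The replicates differed widely there, with ranks 586 and 24901, and the sequence is among those printed above. The acr-7 region, 2998 bp upstream and 984 bp from the 5′ end of T09A5.5, had rank 1246, with ranks 4967 and 3577 in replicates 1 and 2. The acr-12 region had rank 1406 and lay in a coding exon, 85 bp from the nearest annotated 5′ end of the gene. It had rank 513 in replicate 1, and no replicate 2 region overlapped it. The betaine receptor gene acr-23 showed the same pattern, with rank 1500 in the list from both replicates, rank 831 in replicate 1 and no overlapping region in replicate 2. All 4 genes therefore rested on a region that was outside the strongest 2000 of replicate 2 or missing from it.

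Of the 4 acr genes listed for motor neurons, 1 had a region among the strongest 2000 (25%, beside 13.8% of all coding genes). Their median best rank was 13370, against 7785 over all coding genes. That median rests on a region that acr-2 and acr-3 share and is counted for each. The genes acr-2, acr-3, acr-5 and acr-12 encode receptor subunits known from ventral cord motor neurons. Besides acr-12, the acr-5 gene had its best region at rank 6787, in an intron 331 bp from the 5′ end, with ranks 12683 and 27591 in replicates 1 and 2. Another region of the acr-5 window had rank 1442 in replicate 2's own list. The adjacent genes acr-2 and acr-3 shared their best region, at rank 19953 in an intron of acr-2. It had rank 9310 in replicate 1 and no overlapping region in replicate 2, where the best region of either window had rank 8340. The acr-16 gene encodes a subunit of the nicotine-sensitive receptor of body wall muscle, and its best region, in a UTR exon 2867 bp from the 5′ end, had rank 2894, with ranks 2347 and 22265 in replicates 1 and 2.

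The lgc genes were the largest family, and 10 of the 56 had a region among the strongest 2000 (17.9%, beside 13.8% of all coding genes). Their median best rank was 7225, against 7785 over all coding genes with a region. The lgc-9 and lgc-33 genes, both on IV, were the only members of any family with no region in the list from both replicates. After lgc-12 and lgc-51, the next was lgc-13 at rank 548, with a region 2803 bp upstream whose nearest 5′ end, at 1217 bp, was that of col-181. Its replicate ranks were 788 and 3664. The neighbouring genes lgc-14 and lgc-15 shared a region of rank 1347 that lay in a coding exon of lgc-14, 894 bp upstream of lgc-15. A further region, of rank 1876, lay in the windows of lgc-13, lgc-14 and lgc-15 at once. These 3 genes thus rested on 3 regions between them.

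The remaining lgc genes with a region among the strongest 2000 were lgc-25 (rank 687), lgc-36 (rank 1092), lgc-50 (rank 1413), lgc-29 (rank 1754) and lgc-57 (rank 1861). The lgc-25 region had replicate ranks of 1283 and 2130 and was nearest the 5′ end of vha-20, a vacuolar ATPase gene. The serotonin-gated channel gene lgc-50 had its region in an intron 1789 bp from its 5′ end, with replicate ranks of 1554 and 9834. The lgc-36 region, 956 bp upstream, had replicate ranks of 2649 and 495, and the lgc-29 region, in an intron, had 6630 and 7238. The lgc-57 region was also intronic, with rank 11911 in replicate 1 and rank 856 in replicate 2. The lgc-57 window held 11 candidate regions, the most of any member, and lgc-58 followed with 8. Windows of 7 regions were those of lgc-51, acr-8, glr-4 and gab-1. The best lgc-58 region had rank 8246.

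Other lgc genes with a known ligand ranked lower in the list from both replicates, though several ranks were better in a replicate's own list. The GABA-gated cation channel gene lgc-35 had rank 4342, and the best ranks in its window were 18264 in replicate 1 and 2213 in replicate 2. The dopamine-gated chloride channel gene lgc-53 had rank 13826, with 14167 and 7411 as the best in its window in replicates 1 and 2. The tyramine-gated chloride channel gene lgc-55 had rank 21666, with 9127 and 6538 in the replicates' own lists. The acetylcholine-gated chloride channel gene lgc-46 had rank 25102, and its best region overlapped none in either replicate. The best ranks in the lgc-46 window were 23166 in replicate 1 and 13241 in replicate 2.

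The ionotropic glutamate receptor genes had 1 gene of 10 with a region among the strongest 2000, beside 13.8% of all coding genes. It was the AMPA-type gene glr-2, at rank 1338 in a coding exon 5751 bp into the gene and 930 bp from the 5′ end of B0280.11. Among best regions of that rank with a match in both replicates, the replicates differed most at this one, with ranks 25865 and 542 in replicates 1 and 2. The next were nmr-2, an NMDA-type subunit gene, at rank 2429, and glr-4 at rank 2528. The nmr-2 region had rank 785 in replicate 2 and was missing from replicate 1, while the glr-4 region was even between replicates, with ranks 3120 and 3458. The glr-8 region, in a UTR exon, had rank 4632, with rank 738 in replicate 1 and none in replicate 2. The other NMDA-type gene, nmr-1, had rank 8399, in a coding exon 314 bp from its 5′ end, with rank 1535 in replicate 2 and none in replicate 1. The family count depended on the list. In replicate 1's own list 3 of the 8 glr genes and 0 of the 2 nmr genes had a region among the strongest 2000. In replicate 2's own list 2 glr genes, glr-2 and glr-5 (rank 1501), and both nmr genes had one. Over all coding genes the shares were 14% and 14.2%.

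The glutamate-gated chloride channel genes had the best ranks of any family, with a median of 1292 over 4 genes. Of these, glc-2, glc-3 and glc-4 had a region among the strongest 2000 and glc-1 did not, its best rank being 5342. The glc-2 region, of rank 872, lay in an intron, had ranks 5696 and 1038 in replicates 1 and 2, and also lay in the window of F25F8.1. The glc-3 gene had a pair of regions among the strongest 2000, which lay in no other coding gene's window. The first, of rank 931, was in a coding exon 3040 bp from the 5′ end, with replicate ranks of 4404 and 2966. The second, of rank 943, was 1333 bp upstream, with replicate ranks of 907 and 16631. The glc-4 region, of rank 1653, lay 4961 bp upstream, near the limit of the window, and was nearer the 5′ end of pdl-1. Its replicate ranks were 1366 and 11836. With 4 genes this order is a description. The count of 3 was 1, glc-3, when regions were given to the nearest 5′ end, beside 8.13% of all coding genes. It was 1, glc-2, in replicate 2's own list, beside 14.2% of all coding genes. In the replicates' own lists the median best rank of the glc genes was 3531 in replicate 1, the best of the 6 families. It was 4945 in replicate 2, where the nmr and gab genes were ahead. The glr genes were ahead there too, at 4018, but only over those with a region, and 1 of the 8 had none. The single gab gene, gab-1, had 7 regions with a best rank of 5795, and shared that best region with lgc-37.

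**Figure D2:**
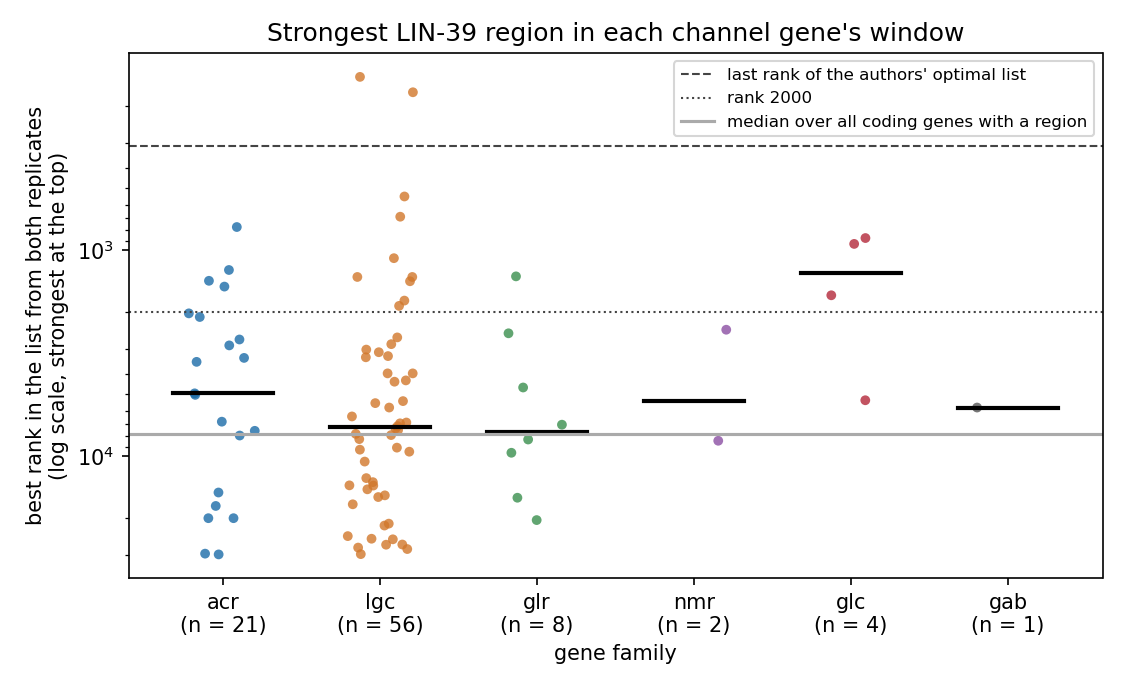
Rank of the strongest region in each gene's window in the list from both replicates (vertical axis, log scale, strongest at the top), for the members with a region in each family (horizontal axis). Points are genes, black bars are family medians, and lines mark the last optimal rank (311), rank 2000 and the median over all coding genes with a region (7785). Only lgc-12 and lgc-51 lie above the last optimal rank, and 3 of the 4 glc genes lie above rank 2000.

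The order of the families did not hold from replicate to replicate. The acr genes had a median best rank of 7064.5 in replicate 1 and 7901 in replicate 2, and the lgc genes 8913.5 and 7285. The acr family was therefore ahead in replicate 1 and behind in replicate 2. The glr genes had 4410.5 in replicate 1 and 4018 in replicate 2, ahead of both in each, although their median in the list from both replicates was 7651.5. Genes with no region in a list have no rank and were left out of its median. In replicate 1 these were 1 acr gene and 2 lgc genes, and in replicate 2 they were 4 lgc genes and 1 glr gene. The order in each replicate is thus that of the genes with a region. Over all coding genes the medians were 7876.5 and 7779.5.

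The channel genes ranked high in 1 library were mostly not those ranked high in the other. In replicate 1's own list, 20 members had a region among the strongest 2000 (21.7%, against 14% of all coding genes). In replicate 2's own list, 15 did (16.3%, against 14.2% of all coding genes). Of the 92 channel genes, 4 were in both sets (4.35%), against 4.72% of all coding genes, so this share was near the background. They were 20% of the replicate 1 set and 26.7% of the replicate 2 set. Over all coding genes the shared genes were 33.7% and 33.2% of the same sets. At lgc-12 the strongest regions of the 2 replicates coincided, but they lay 1454 bp apart at lgc-51, 6242 bp at glr-2 and 11579 bp at lgc-10. When a single region had to be among the strongest 2000 of both replicates, 2 members remained (2.17%, against 3.25% of all coding genes), and they were lgc-12 and lgc-51. The order of these shares turned at the strongest 5000, with 10 channel genes (10.9%) against 7.05% of all coding genes.

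At the rank limit of 311 in each replicate's own list, the 2 genes with an optimal region fell into different pairs. Among the 311 strongest regions of replicate 1 alone, the members with a region were lgc-12 and lgc-50. Among those of replicate 2 alone they were lgc-51 and acr-21, a nicotinic-type subunit gene, which had rank 297 there. The members with such a region were 2.17% of the 92 in each replicate, near the 2.46% and 2.48% of all coding genes in replicates 1 and 2. No member was in both sets, while 255 coding genes were, or 51.8% of the replicate 1 set. With 2 members in each set, the lack of a shared one says little.

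**Figure D3:**
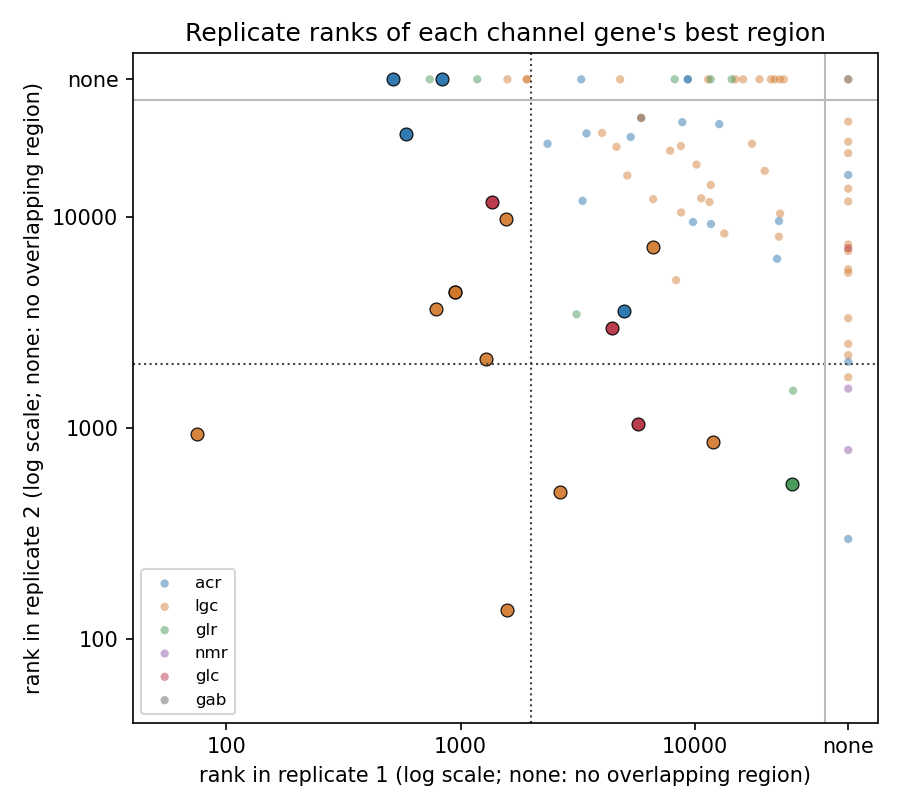
Rank of each member's best region in replicate 1 (horizontal axis) and replicate 2 (vertical axis), both on log scales, coloured by family. Outlined points are the 18 members whose best region was among the strongest 2000 of the list from both replicates, dotted lines mark rank 2000, and points in the outer strips had no overlapping region in that replicate. Only lgc-12 and lgc-51 lie inside both dotted lines.

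The windows of the channel genes held 275 distinct regions, and 12 of these lay in the windows of more than 1 member. The window of at least 1 other coding gene that is no member held 152 of them (55.3%). Of the 20 distinct regions among the strongest 2000, 14 lay also in such a window, and 10 had a member's 5′ end as the nearest. Of the 18 members with such a region, 8 had their own 5′ end as the nearest to their best region. They were lgc-12, acr-8, glc-3, lgc-15, acr-12, lgc-50, acr-23 and lgc-29. Of the same 20 regions, 12 were among the strongest 2000 of replicate 1 (51.35% of all regions of that rank were), 6 of replicate 2 (46.75% of all regions of that rank), 2 of both (10%, against 20.25% of all regions of that rank) and 4 of neither (22.15% of all regions of that rank). The best region lay upstream of 9 of the 18 genes, in an intron of 4 and in a coding exon of 5.

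Regions were spread over the windows much as the sequence was. Counting each gene with each of its regions, 133 of 288 (46.2%) were upstream of the member, where 50.3% of the window length lay. Introns held 93 (32.3%, for 31.8% of the length) and coding exons 55 (19.1%, for 16.2%). Among the strongest 2000, coding exons held 6 of 23 (26.1%, exact 95% interval 10.2 to 48.4) at the channel genes and 12.4% over all coding genes. The same region can count for several genes in these sums.

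**Figure D4:**
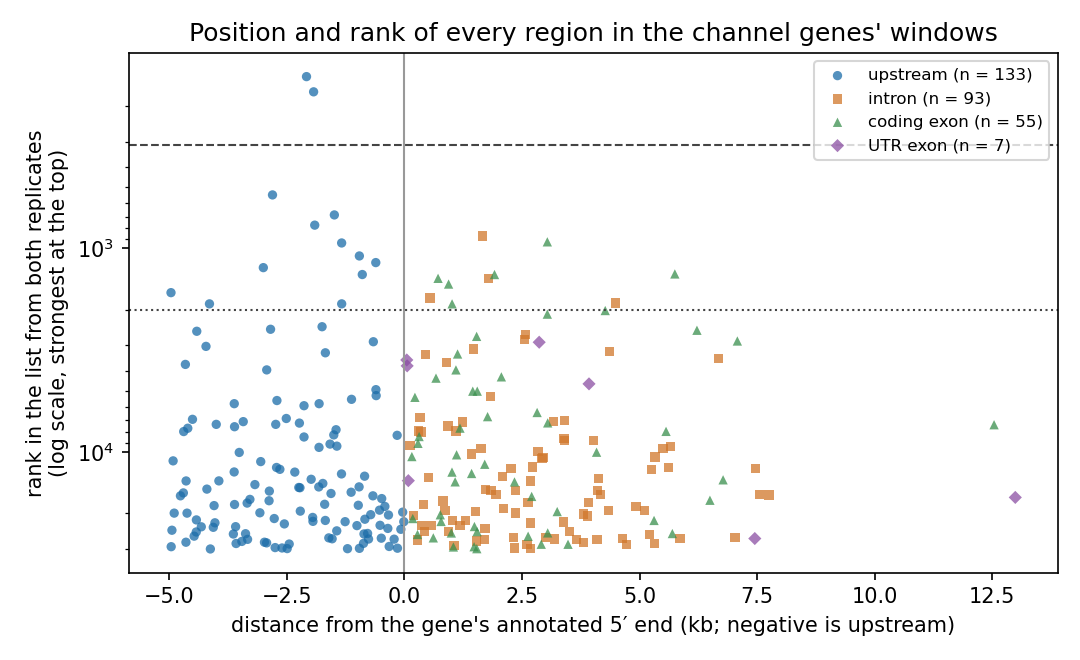
Distance of each of the 288 gene and region pairs from the member's annotated 5′ end in kb (horizontal axis, negative is upstream) and rank in the list from both replicates (vertical axis, log scale, strongest at the top), by where the summit lies in the gene. The dashed line is rank 311 and the dotted line rank 2000. Both optimal regions lie about 2 kb upstream, and weaker regions fill the upstream part and the genes alike.

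Every share of words at all regions given here lay inside the exact interval of the channel gene share. The search covered both strands up to 100 bp from each summit, and TGATNNAT can overlap TGATAA. Of the 20 distinct regions among the strongest 2000, 3 held GAGAGA (15%, exact 95% interval 3.21 to 37.9), against 25.95% of all regions of that rank. TGATNNAT was at 3 (15%), against 18.9%, and TGATAA at 4 (20%), against 15.75%. TAATTA, the homeodomain core, was at 1, against 8.25%. Over all ranks, GAGAGA was at 27 of the 275 regions (9.82%, exact 95% interval 6.57 to 13.96), against 13.1% of all 30000 candidate regions. TGATNNAT was at 43 (15.6%, interval 11.6 to 20.5), against 17.01%. GCGCAGGG, a word of the X chromosome's dosage compensation sites, was found at 0 of 275, which allows a share of up to 1.09% by the limit of 3 counts and 1.33% by the exact interval, against 0.117% of all candidate regions. A word in the window is a description and shows no binding by a factor.

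Other genes of the same synapses gave a frame for these counts. Of 23 symbols listed for Cys-loop subunits named otherwise, 20 found a coding gene. The symbols ggr-1, ggr-2 and ggr-3 found none, and whether these genes now carry other names, also among the members, was not checked. Of the 20 genes, none had an optimal region and 4 had a region among the strongest 2000 (20%, beside 13.8% of all coding genes). They were unc-63, a levamisole receptor subunit gene (rank 478), eat-2, a pharyngeal nicotinic subunit gene (804), unc-49, the GABA-A receptor gene (1430), and deg-3 (1833). Of 19 genes for the synthesis, loading, uptake or breakdown of transmitters, none had an optimal region, which 2.54% of all coding genes had. A region among the strongest 2000 was found for 4 of the 19 (21.1%, beside 13.8% of all coding genes). They included cat-2, the tyrosine hydroxylase gene of dopamine synthesis, at rank 312, just outside the optimal list, with replicate ranks of 255 and 3212 and 146 bp from the 5′ end of scc-2. The others were ace-1, an acetylcholinesterase gene (1225), the GABA transporter gene snf-11 (1274) and unc-25, the glutamate decarboxylase gene of GABA synthesis (1718).

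Of 16 genes found for receptor assembly, auxiliary and clustering proteins, 6 had a region among the strongest 2000 (37.5%, beside 13.8% of all coding genes) and 2 had an optimal region, which 2.54% of all coding genes had. The region of lev-9, which encodes a secreted protein of acetylcholine receptor clustering, had rank 18, with ranks 28 and 8 in replicates 1 and 2. It lay 4873 bp upstream, nearer to cest-16. The unc-40 gene encodes the netrin receptor, which also organises GABA receptors at the muscle, and had an intronic region of rank 48, with replicate ranks of 70 and 35. The others were madd-4 (655), molo-1 (719), nra-2 (1039) and stg-1 (1150). Like the lev-9 region, those of molo-1, nra-2 and stg-1 were nearest another gene's 5′ end, that of nspb-12, lin-53 and die-1 in turn. The madd-4 and unc-40 regions were nearest a 5′ end of their own gene. Rank 18 and rank 48 were stronger than rank 144, the best rank of any of the 92 channel genes. The unc-40 region was known to be on the optimal list when this list was drawn up, so its place in both counts is no separate evidence. The whole list was chosen with earlier results of these data known, and the window lengths of its genes were not compared.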

How the data were processed

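ChIP-seq regions of eGFP-tagged LIN-39 from whole L2 larvae were taken as the authors deposited them, in narrowPeak tables on ce11. The deposited text files trace a candidate list to each replicate's alignments and another to the alignments of both, each with a further input that is not described. They trace the optimal list to these 3 lists. No label or file header names the aligner, the caller or the IDR threshold. The deposited signal value per region, whose scale is not stated, served only to rank regions within a list. Read depth is unknown from these tables, and the ce10 tables were not used. Region width was constant within a list, at 330 bp for replicate 1, 300 bp for replicate 2 and 310 bp for both together.

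The region chosen in a replicate for a given region was the strongest that overlapped it by at least 1 bp. Named genes were all members with an optimal region, the 3 best-ranked per family, those in the list of motor neuron genes or with a listed ligand, the 3 with most regions and those with the 3 widest replicate gaps among the strongest 2000. Others named for a count or a contrast were chosen after their values were seen. The members and lists were chosen with earlier results of these data known. No test was run: the 2 replicates form 1 group. Window counting was tested on simulated data. Alternatives changed the upstream reach, the rank limit, the matching, the assignment and the list. A comparison of protein sequences planned for the members was not run. Python 3.11.15, NumPy 2.4.6, SciPy 1.17.1 and matplotlib 3.10.9 were used.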

Additional observations from a re-analysis of the deposited data

How the results depend on the processing

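The number of members with an optimal region was 2. It was 1 with the stronger part of the optimal list (lgc-12), 1 with 2 kb upstream (lgc-51) and 1 with each region given to the nearest 5′ end (lgc-12). With 10 kb upstream it was 3, glc-4 being added, and it was 2 from either replicate alone. Over these settings the share of members lay slightly below that of all coding genes, from 1.09% against 1.37% with the nearest 5′ end to 3.26% against 3.97% with 10 kb. These are counts of 1 to 3 genes from the same 2 libraries, so the settings are no separate evidence of a lower share. The number with a region among the strongest 2000 was 18, or 28 with 10 kb upstream and 11 with the nearest 5′ end. At rank limits of 1000 and 5000 it was 7 and 38. It was 15 to 20 from single replicates. The share exceeded that of all coding genes under each of these settings, most narrowly at the 1000 limit (7.61% against 7.28%). At stricter limits of 500 and 750 it was lower (2.17% and 4.35%, against 3.93% and 5.67%). The settings draw on the same 2 libraries, so they are no separate evidence of a higher share. The acr count was 4 (1 and 11 at the 1000 and 5000 limits, 2 to 4 from single replicates). The limits gave 4.76% and 52.4% of acr genes, against 7.28% and 31% of all coding genes. Replicates 1 and 2 gave 19.05% and 9.52%, against 14% and 14.2%. The lgc count was 10 (4 and 20 at those limits, 16 with 10 kb, 6 with the nearest 5′ end, 7 to 11 from single replicates). The limits gave 7.14% and 35.7% of lgc genes, against 7.28% and 31% of all coding genes. Replicates 1 and 2 gave 19.6% and 12.5%, against 14% and 14.2%. Over all coding genes the share was 21% with 10 kb and 8.13% with the nearest 5′ end. The 2 members strong in both replicates were 1 and 10 at those limits (1.09% and 10.9%, against 2.16% and 7.05% of all coding genes). The median best rank of members was 7075 with 2 kb, 4310.5 with 10 kb and 6538 to 6884 from single replicates. Regions per 100 kb of member windows were 33.7 with 2 kb, 30.6 with 10 kb and 31.1 to 31.9 from single replicates. The causes of these shifts were not tested, except that a wider window or a deeper limit admits more regions by construction. No paired analysis was possible because the samples form 1 group. Depth is unknown, so a region missing from a list does not show that a site was unbound.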

Other observations

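By chromosome, the channel genes with a region among the strongest 2000 ranged from 2 of 6 on I (33.3%, against 15.3% of all coding genes there) to none on IV. On X, which carries 27 of the 92 genes, 6 had such a region (22.2%), against 19.9% of all coding genes on X. On IV, 0 of 14 had one, against 12.4% of all coding genes there. The IV genes include lgc-9 and lgc-33, the 2 members with no region in the list from both replicates. The lgc-33 window had a region in replicate 1 (rank 23800) and the lgc-9 window one in replicate 2 (rank 18631).

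Both replicates ranked a region of the lgc-10 window high, at different places. The best region had rank 1583 in replicate 1, 2732 bp upstream, and rank 1411 in replicate 2, in an intron 8847 bp into the gene. In the list from both replicates the best rank was 7319. The glr-1 gene, an AMPA-type subunit gene of command interneurons, had best ranks in its window of 1177 in replicate 1, 16365 in replicate 2 and 15877 in the list from both.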
